A study of Oryza sativa with 14 samples.

Results

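The shoots of dark-grown wild-type (WT) rice seedlings were compared between ethylene and air, with 1 array of ethylene-treated shoots and 1 array of air-grown shoots, 2 of the 14 arrays of the series. Both were chosen by their titles alone. The series measured RNA from roots and shoots on one-colour Affymetrix rice arrays in WT and in mhz1, mhz4 and mhz5, mutants isolated for altered ethylene responses. Each genotype, tissue and gas had 1 array. The 4 shoot arrays of mhz4 and mhz5 were set beside the WT pair, and mhz1 was measured in roots only. The ethylene-treated WT, mhz4 and mhz5 shoots came from etiolated seedlings aged 3 days that spent 8 h at 28 °C in the dark in 10 ppm ethylene, after the water had been lowered to 1.5 to 1.7 cm. The WT, mhz4 and mhz5 shoots in air came from etiolated seedlings too. Their labels give no seedling age, duration, temperature or water depth, so a difference in any of these cannot be told apart from ethylene. For all groups, germination took 2 days in darkness at 37 °C. The labels name neither the cultivar nor the alleles, nor how many seedlings went into an array.

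Rice seedlings germinate under water, and in the dark ethylene makes the coleoptile of the shoot grow longer while the root grows shorter. Ethylene binds receptors in the endoplasmic reticulum membrane (ETR and ERS proteins) that repress the pathway while unbound. Once they are bound, EIN2 passes the signal to transcription factors of the EIN3-like (EIL) family, and several of the genes these switch on, receptors and ARGOS among them, dampen the response. In published work MHZ4 encodes a chloroplast protein of abscisic acid (ABA) synthesis and MHZ5 a carotenoid isomerase upstream of ABA. Roots of both mutants were described as less sensitive to ethylene and their coleoptiles as more sensitive, so neither mutant is an ethylene-blind control.

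Each value is a deposited signal, an intensity per probe set on a linear scale. Differences below are ethylene minus air on log2(signal + 8), a scale that compresses the changes of dim probe sets, and a difference of at least 1, 2 or 3 is called at least 2-fold, 4-fold or 8-fold apart. Of 57258 probe sets, 20094 had a signal of at least 50 on the brighter WT shoot array and were compared. With 1 array a group the WT pair has no replicate check, so its differences carry no p-value. In RNA of whole shoots, fewer cells of a type and less RNA per cell cannot be told apart. The labelled tissue was checked with marker genes. The summed signal of the 15 shoot markers on the array was 24407 on the WT ethylene array and 24413 on the WT air array, against 661 to 1071 on the 8 root arrays. The 9 root markers summed to 358 and 363 on the WT ethylene and air arrays, and to 6246 to 10845 on the root arrays. The shoot meristem gene OSH1 stayed below a signal of 50 on every shoot array.

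The WT air array lay farther from the 4 mutant shoot arrays than the WT ethylene array did, and this touches many of the large differences below. In air, 1881 probe sets were at least 2-fold apart between mhz4 and WT and 1455 between mhz5 and WT. In ethylene these counts were 997 and 642, and between mhz5 and mhz4 they were 405 in ethylene and 241 in air. Over all 57258 probe sets, which share the array design and many dim signals, Spearman's rho with the mutant arrays was 0.982 to 0.986 for the WT ethylene array and 0.98 to 0.981 for the WT air array. Between the WT arrays it was 0.989, so by this measure the air array did not stand apart from its own pair. A property of that 1 array and a true difference of WT shoots in air cannot be told apart. No WT count can be given without it, and the tests in mhz4 and mhz5 shoots do not use it. MHZ4 itself had signals of 60.7 and 49.2 on the ethylene and air arrays of mhz4 shoots, against 134.5 and 162.7 in WT and 128.7 and 121.3 in mhz5.

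In WT shoots 492 probe sets were at least 2-fold apart. They comprised 192 with the higher signal in ethylene (0.956% of those compared) and 300 with the lower signal (1.49%). At least 4-fold apart were 68, of which 20 were higher (0.0995%) and 48 lower (0.239%). At least 8-fold apart were 16, of which 2 were higher and 14 lower. The values just inside and just outside the 4-fold limit were 2.022 for LOC4341171 and 1.997 for LOC4332175.

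Set beside the mutants, 15 of the 68 probe sets were at least 2-fold apart the same way in both mutants, 14 in 1 mutant and 39 in neither. The share was larger among the higher probe sets, 10 of 20, than among the lower ones, 5 of 48. However, all 20 higher probe sets but only 26 of the 48 lower ones reached a signal of 50 on a mutant array. Probe sets dim on all mutant arrays have little room for a 2-fold fall on this scale, so the shares cannot be compared directly. A WT array was called apart when it lay at least 1 log2 unit outside the range of the 4 mutant shoot arrays. By that measure only the air array was apart for 47 of the 68, only the ethylene array for 4, both for 4 and neither for 13. Of all 492 probe sets at least 2-fold apart, the air array alone was apart for 203 and neither for 250. The air array had the highest signal of all 6 shoot arrays for 45 of the 48 lower probe sets and the lowest for 18 of the 20 higher ones. For 21 of the 48 it was the only shoot array with a signal of at least 50. Probe sets entered through the brighter WT array, so for those dim on all mutant arrays the filter favours a call of the brighter one as apart. Of the 46 that reached a signal of 50 on a mutant array too, the air array alone was apart for 26, the ethylene array alone for 4, both for 3 and neither for 13.

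**Figure D1:**
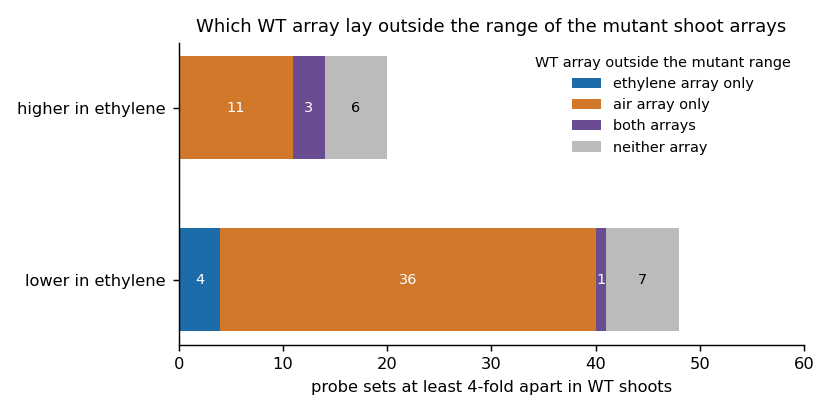
Bars count the probe sets at least 4-fold apart between ethylene and air in WT shoots, split by which WT array lay at least 1 log2 unit outside the range of the 4 mhz4 and mhz5 shoot arrays. The air array alone did so for 11 of the 20 higher probe sets and for 36 of the 48 lower ones.

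Whether a gene responded in arrays other than the WT pair was tested with limma on the 10 mutant arrays, with 1 ethylene term shared by mhz4 and mhz5 shoots. The genotypes stand in for replicates there, so the p-values measure the spread of the response between genotypes and not between replicate seedlings. Most of that spread was estimated from the root pairs of mhz1, mhz4 and mhz5. A gene whose shoots agree can therefore fail where its roots disagree. Conversely, a gene dim on all root arrays gets a small spread from them, because this scale compresses dim signals, and can pass more easily. After Benjamini-Hochberg adjustment 760 of 20305 probe sets passed (3.74%), 244 higher in ethylene (1.2%) and 516 lower (2.54%). Among the probe sets at least 2-fold higher in WT, 186 were tested and 33 rose in the mutants (17.7%). Among those at least 2-fold lower in WT, 209 were tested, 69 fell in the mutants (33%) and 5 rose. Both shares of same-way calls were above the shares over all probe sets tested. The difference between the WT and the mutant response was tested in a second limma fit over all 14 arrays, in which the WT pair is assumed to vary like the other pairs. There too most of the spread was estimated from roots, those of WT included. This second fit called 35 of 20760 probe sets (0.169%), 13 with the higher difference in WT (0.0626%) and 22 with the lower (0.106%).

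**Figure D2:**
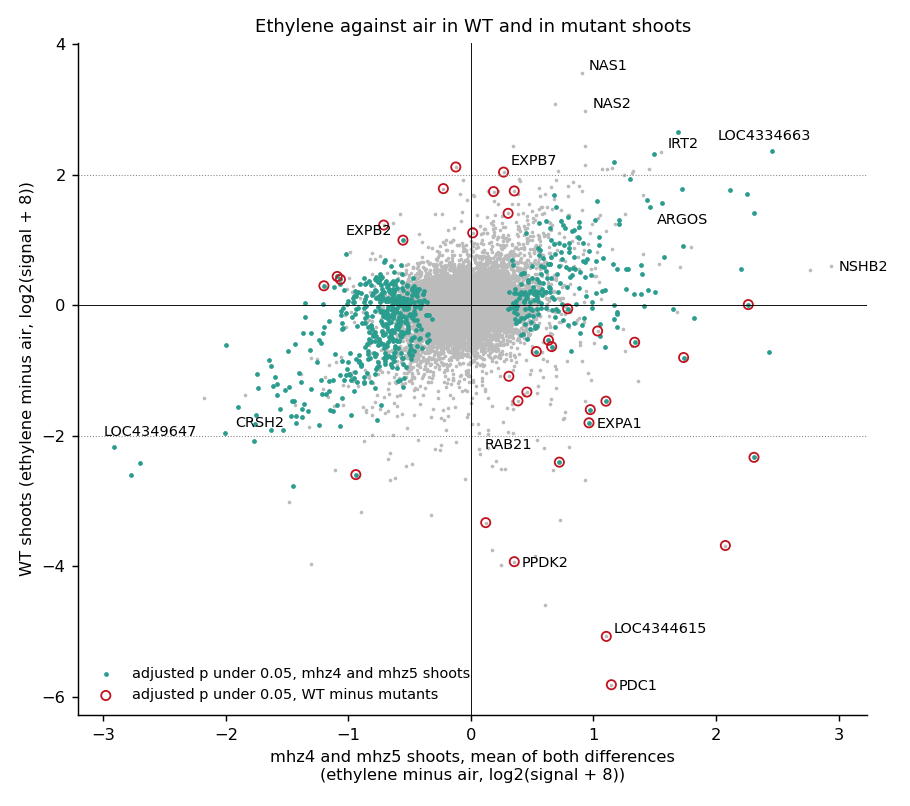
Each point is 1 of the 20094 probe sets compared, with the difference between ethylene and air in WT shoots on the y axis and the mean of the mhz4 and mhz5 differences on the x axis, both on log2(signal + 8). Filled teal points passed the test in mhz4 and mhz5 shoots and open red circles passed the test of WT minus mutants, with PDC1 and PPDK2 far below 0 in WT alone and LOC4334663 and LOC4349647 at both ends in all 3 genotypes.

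The genes of ethylene perception and signalling that passed in the mutants differed the same way in WT shoots, with the highest difference in ARGOS. Of 8 compared, ARGOS was at least 2-fold higher (1 gene, against 1.01% of all 13209 genes compared) and EIL1B at least 2-fold lower (1 gene, against 1.44%). In the mutants 2 of the 8 rose and 3 fell (against 1.2% and 2.54% of all probe sets tested). ARGOS, whose maize and Arabidopsis relatives lower ethylene sensitivity, had signals of 268 in ethylene and 89.7 in air in WT. It had 358 and 141 in mhz4 and 335 and 103 in mhz5. All 3 ethylene arrays were above all 3 air arrays. The WT difference was 1.50, and the mutant response was 1.46 ± 0.11 (SE, adjusted p = 0.00912). The gap between WT and the mutants was 0.04 (adjusted p = 0.964), which is no proof of equal responses.

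The receptors did not move as a block. ETR2 read 732 in ethylene and 383 in air in WT, 837 and 519 in mhz4, and 786 and 435 in mhz5. Its WT difference was 0.92, and it rose in the mutants by 0.76 ± 0.08 (SE, adjusted p = 0.0171). ERS2 went the other way, with 62.4 and 98.5 in WT, 34.6 and 55.7 in mhz4, and 32.2 and 64.6 in mhz5. Its WT difference was -0.60, and it fell by 0.72 in the mutants (adjusted p = 0.0365). The receptors ERS1 and ETR3 had WT differences of 0.07 and 0.36 and did not pass in the mutants (adjusted p = 0.148 and 0.263).

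Downstream of the receptors, the transducer EIN2 had a WT difference of -0.23 and fell by 0.44 in the mutants (adjusted p = 0.0478). This call was lost under 7 of 10 other settings. The EIL transcription factors split. EIL1A was bright and level, with 3158 in ethylene and 3305 in air in WT. EIL1B read 28.9 in ethylene and 117 in air in WT, 48.9 and 81.4 in mhz4, and 44.7 and 89.3 in mhz5. The WT ethylene signal was the lowest of the 6, the WT air signal the highest, and the mutant response was -0.77 ± 0.14 (SE, adjusted p = 0.0423). ACO1, an ACC oxidase of the last step of ethylene synthesis, read 2688 and 2955 in WT. In mhz4 it read 3140 and 2007 and in mhz5 4731 and 2549, a mutant response of 0.77 that did not pass (adjusted p = 0.0575).

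NAS1 and NAS2, genes of iron chelator synthesis, gave the highest named differences in WT shoots. Grasses take up iron with phytosiderophores, which are built from methionine by nicotianamine synthase (NAS) and nicotianamine aminotransferase (NAAT). Of the 10 genes of phytosiderophore synthesis and the methionine cycle compared, 3 were at least 2-fold higher and 9 were above 0. Over all genes compared these shares were 1.01% and 43.7%. The list's WT median was 0.26, beside 0.41 in mhz4 and 0.42 in mhz5, against -0.03, -0.03 and 0.00 over all genes compared.

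NAS1 read 1450 in ethylene and 116 in air in WT, a ratio of 12.5 and a difference of 3.55. It read 575 and 214 in mhz4, and 9181 and 6884 in mhz5. The mhz5 shoots therefore stood above WT and mhz4 in both gases, and their own difference was 0.41. NAS2 gave 830 and 99.1 in WT, 452 and 162 in mhz4, and 6695 and 4965 in mhz5. NAS1 and NAS2 are neighbouring paralogs, and their probe sets may share transcripts.

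NAAT1 read 515 and 111 in WT, 418 and 167 in mhz4, and 4505 and 3011 in mhz5. In the mutants none of NAS1, NAS2 and NAAT1 passed (adjusted p = 0.0856, 0.0708 and 0.0513). WT minus mutants was 2.65 for NAS1 (adjusted p = 0.0909), 2.04 for NAS2 (0.127) and 1.21 for NAAT1 (0.272). NAS3 was level, at 1049 and 1169 in WT. ARD1, an acireductone dioxygenase that recycles the methionine spent on ethylene and phytosiderophores, read 1442 and 769 in WT, 1296 and 434 in mhz4, and 1203 and 317 in mhz5. It rose by 1.73 ± 0.31 in the mutants (SE, adjusted p = 0.0399).

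Of 10 genes of iron transport and regulation, 3 were at least 2-fold higher in WT and 1 was lower, with a median of 0.00. Over all genes compared 1.01% were higher and 1.44% lower by that limit. IRT2, an iron-regulated transporter, read 104 in ethylene and 14 in air in WT, 61.2 and 9.43 in mhz4, and 248 and 110 in mhz5. Each genotype had the higher signal in ethylene (mutant response 1.55, adjusted p = 0.0619). NRAMP1, a divalent metal transporter, read 293 and 116 in WT, 176 and 88.5 in mhz4, and 1766 and 1218 in mhz5, and it rose by 0.73 in the mutants (adjusted p = 0.046). That call was lost under 5 of 10 other settings. IRO3, a bHLH factor of the iron-deficiency response, read 407 and 188 in WT. VIT2, which moves iron into the vacuole, had the opposite order, with 75.5 and 180 in WT, 144 and 211 in mhz4, and 32.6 and 59.0 in mhz5. Root markers summed to 329 to 454 over the shoot arrays. In the list, the chelate transporter YSL15 was level in WT at 42.2 and 53.6.

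**Figure D3:**
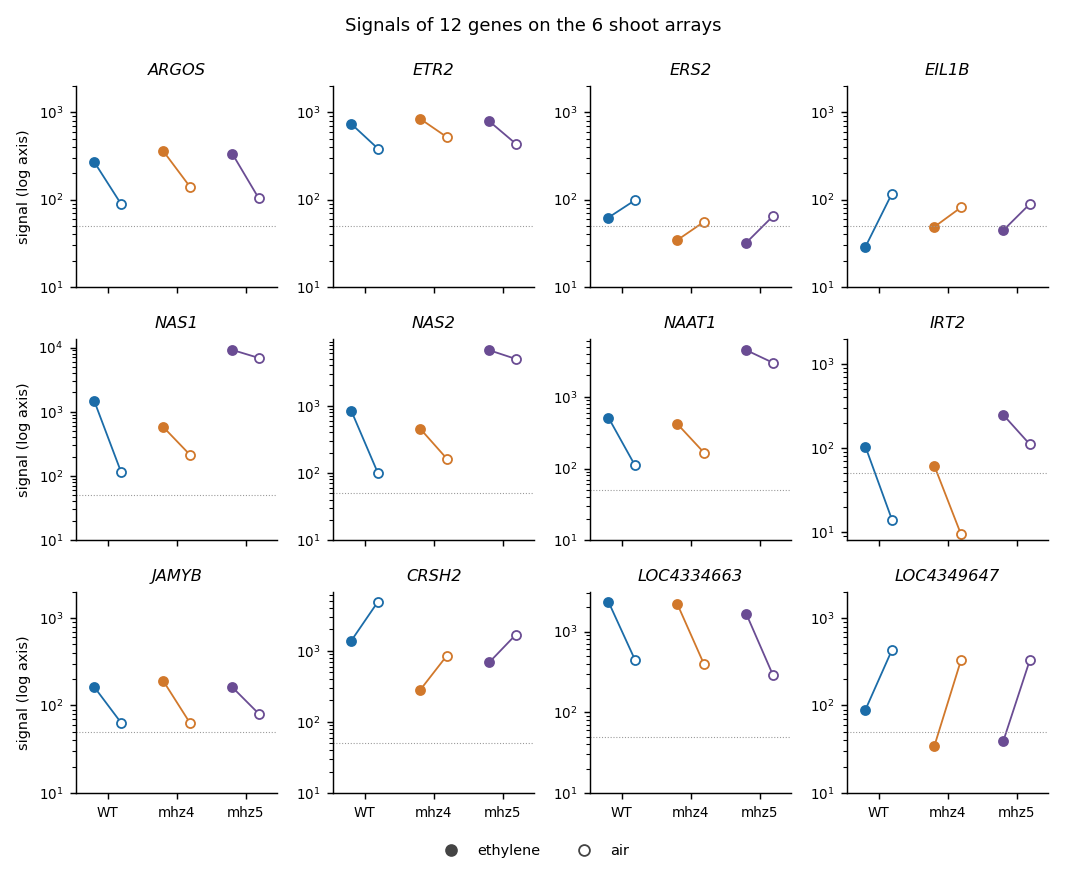
Signals on a log axis of 12 genes on the 6 shoot arrays, with ethylene as filled and air as open circles, joined within each genotype, and a dotted line at a signal of 50. ARGOS, JAMYB and LOC4334663 sit at similar levels in all 3 genotypes, whereas NAS1, NAS2 and NAAT1 are far higher in mhz5 in both gases.

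Several genes without a functional name in the gene table differed the same way in all 3 genotypes, LOC4334663 by similar amounts. LOC4334663 read 2344 in ethylene and 448 in air in WT, 2187 and 397 in mhz4, and 1652 and 291 in mhz5, with differences of 2.37, 2.44 and 2.48. The ethylene and air arrays did not overlap, and the mutant response was 2.46 ± 0.32 (SE, adjusted p = 0.0232). LOC4347916 followed the same order, with 223 and 52.9 in WT, a WT difference of 1.93 and a mutant response of 1.30 (adjusted p = 0.0239). LOC4344914 and LOC4344496 rose in the mutants by 1.69 and 1.50 (adjusted p = 0.0247 and 0.0287). Their WT signals were lower than the mutants' in the same gas, at 90.4 and 7.60 for LOC4344914 and 81.7 and 10.0 for LOC4344496, and the WT differences were 2.66 and 2.32.

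The clearest shared decrease was LOC4349647. It read 89.5 in ethylene and 431 in air in WT, 34.6 and 327 in mhz4, and 39.3 and 332 in mhz5, and fell by 2.91 in the mutants (adjusted p = 0.0239). A further probe set of this gene gave a WT difference of -2.60. LOC4333011 and LOC4328499 had WT differences of -1.91 and -2.08, and in the mutants LOC4333011 fell by 1.54 (adjusted p = 0.00879) and LOC4328499 fell by 1.77 (adjusted p = 0.0152). On the root arrays LOC4333011 was dim, at 5.27 to 8.43. LOC4329374 read 46.3 in ethylene and 364 in air in WT, 23.4 and 53.7 in mhz4, and 23.6 and 112 in mhz5, so the WT air array was far above the rest, and it fell by 1.45 in the mutants (adjusted p = 0.0311). CRSH2, a calcium-activated chloroplast enzyme that makes the alarmone ppGpp, read 1393 and 4894 in WT, 283 and 856 in mhz4, and 689 and 1686 in mhz5. WT stood above the mutants in both gases and the order of the gases was the same, with a mutant response of -1.43 ± 0.20 (SE, adjusted p = 0.0268). Of the 15 probe sets at least 4-fold apart in WT and at least 2-fold the same way in both mutants, 8 passed in the mutants. Over all probe sets tested 3.74% passed, but the 15 were chosen by the same mutant differences, so the 8 are no further support. LOC4349647 counts among the 8 with both of its probe sets. Without mhz4 or mhz5, when 1 shoot pair remains, the calls on CRSH2, LOC4334663, LOC4347916, LOC4344914 and LOC4344496 were lost. Those on LOC4349647, LOC4333011, LOC4328499 and LOC4329374 could not be tested there, and they were kept under the 8 other settings.

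The low-oxygen and fermentation genes held the largest named difference of WT shoots, and its direction was opposite to that in mhz4. Of 9 compared, 3 were at least 2-fold lower (against 1.44% of all genes compared). The WT median was -0.04, beside 0.61 (mhz4) and 0.12 (mhz5). PDC1, a pyruvate decarboxylase of ethanol fermentation, read 24.3 in ethylene and 1811 in air in WT. It read 92.4 and 14.3 in mhz4, 17.3 and 15.3 in mhz5, and 19.1 to 40.7 on the 8 root arrays. The WT air array was therefore the only one of the 14 with a signal above 100, and the ratio of 74.6 rests on it. WT minus mutants was -6.96 ± 0.69 (SE, adjusted p = 0.0256). This call was lost when the mhz1 or the WT root arrays were left out of the fit.

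PPDK2, a pyruvate phosphate dikinase, had the same form. It read 23.1 and 466 in WT, 78.5 and 42.8 in mhz4, 41.8 and 44.0 in mhz5, and 21.6 to 28.3 in roots, and WT minus mutants was -4.29 ± 0.34 (SE, adjusted p = 0.0114). PPDK1 differed less, with 174 and 565 in WT, 396 and 674 in mhz4, and 330 and 519 in mhz5, so that all 3 genotypes had the lower signal in ethylene. Brighter members of the pathway were level in WT. PDC2 read 2493 and 2200 and Adh2, an alcohol dehydrogenase, 583 and 555. Both had higher signals in ethylene in the mutants. PDC2 rose there by 0.36 (adjusted p = 0.0316), and Adh2 read 635 and 414 in mhz4 and 535 and 293.5 in mhz5.

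The nonsymbiotic haemoglobins, which scavenge nitric oxide in low oxygen, had larger differences in mhz4 and mhz5 than in WT. NSHB1 read 494 in ethylene and 334 in air in WT, 256 and 50.6 in mhz4, and 592 and 119.5 in mhz5, and rose by 2.20 ± 0.42 in the mutants (SE, adjusted p = 0.0446), a call lost under 4 of 10 other settings. A pair of further NSHB1 probe sets gave WT differences of -0.14 and -0.21, opposite in sign to the 0.55 of the first, and mutant differences of 0.81 to 1.58. NSHB2 read 1286 and 843 in WT, 592 and 53.6 in mhz4, and 1499 and 241 in mhz5 (mutant response 2.94, adjusted p = 0.0578). For both genes the WT air array was the highest air array. The difference between the WT and the mutant response did not pass (adjusted p = 0.458 for NSHB1 and 0.39 for NSHB2).

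**Figure D4:**
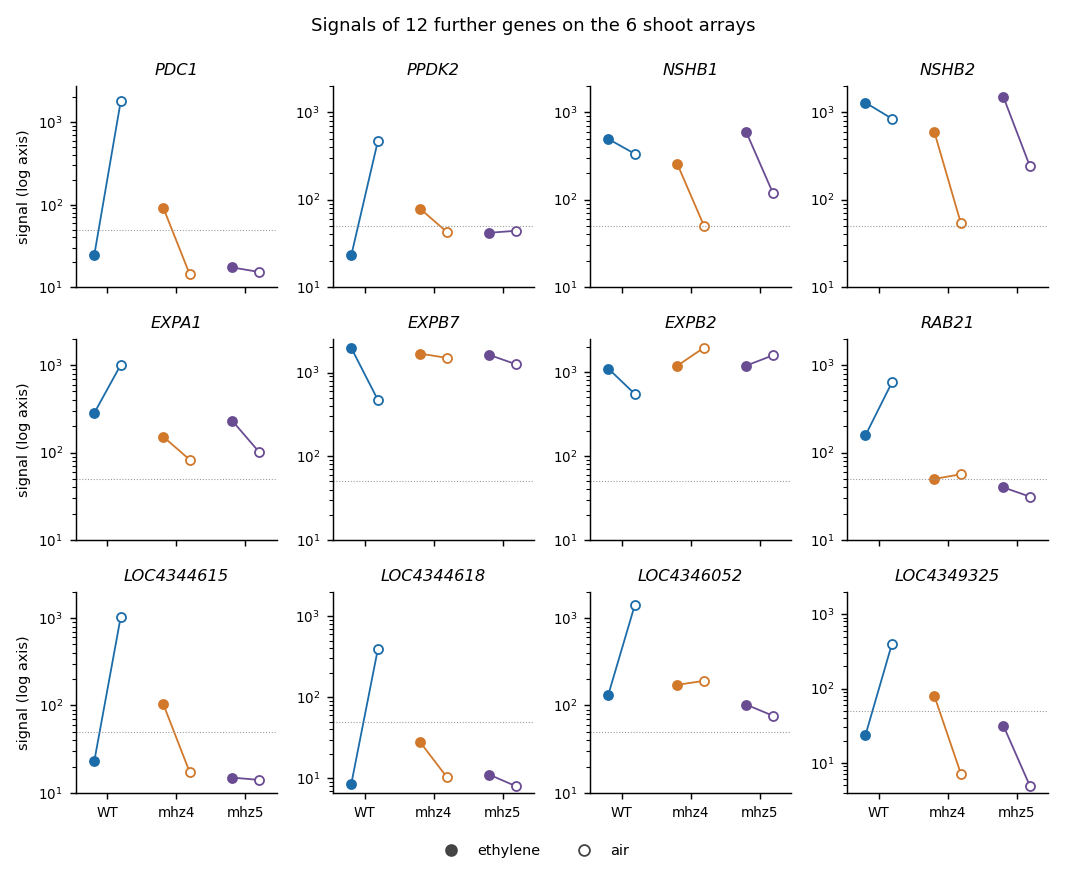
Signals on a log axis of 12 further genes on the 6 shoot arrays, drawn with ethylene as filled and air as open circles and a dotted line at a signal of 50. In PDC1, PPDK2, EXPA1, RAB21 and the 4 unnamed genes the WT air array is the highest of the 6, and in EXPB7 and EXPB2 it is the lowest.

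Expansins, which loosen cell walls as the shoot elongates, differed in both directions. Of 16 compared, 1 was at least 2-fold higher and 1 lower in WT (against 1.01% and 1.44% of all genes compared). The difference between WT and the mutants passed for 3 (against 0.169% of all probe sets tested). EXPA1 read 283 in ethylene and 1007 in air in WT, against 152 and 82.8 in mhz4 and 231 and 103 in mhz5. It rose in the mutants by 0.96 ± 0.15 (SE, adjusted p = 0.0318), whereas the WT difference was -1.80. WT minus mutants was -2.77 ± 0.26 (SE, adjusted p = 0.0208). After ethylene the 3 genotypes lay between 152 and 283, and in air WT was far above both mutants.

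EXPB7 read 1963 and 472 in WT, 1681 and 1496 in mhz4, and 1624 and 1258 in mhz5, and WT minus mutants was 1.77 ± 0.14 (SE, adjusted p = 0.0114). EXPB2 read 1099 and 548 in WT, 1189 and 1948 in mhz4, and 1194 and 1579 in mhz5. It fell by 0.55 in the mutants (adjusted p = 0.0365), and WT minus mutants was 1.55 (adjusted p = 0.0406). Both calls on EXPB2 were lost under 4 of 10 and 6 of 11 other settings. For both genes the 3 ethylene signals were close and the WT air signal was the lowest of the 6. EXPA2 and EXPB11 rose in the mutants by 0.39 and 0.49 (adjusted p = 0.0287 and 0.0388), with WT differences of 0.11 and -0.06.

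In the cell wall list 1 of 35 genes was at least 2-fold higher (against 1.01% of all genes compared), and 29 were below 0 (against 56.3%). The list's WT median was -0.14, against -0.03 over all genes compared. The 1 gene at least 2-fold higher was BURP16, a BURP-domain protein. It read 119 and 19.7 in WT, and 3450 and 1688 in mhz4 and 1753 and 700 in mhz5. WT was far below the mutants in both gases, and BURP16 rose in the mutants by 1.17 ± 0.11 (SE, adjusted p = 0.0149). On the 8 root arrays it read 7.87 to 17.8.

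Some of the genes at least 2-fold apart in WT lay near each other. Taking the order of genes in the RefSeq gene table, genes at least 2-fold apart the same way and at most 3 gene steps from the next such gene formed 18 clusters with 43 genes, 11 clusters lower and 7 higher. Among all 13209 genes compared, 133 were at least 2-fold higher and 190 lower. How many such clusters gene order alone would give was not tested. LOC4344615, LOC4344616, LOC4344618 and LOC4344619 follow each other on chromosome 8. LOC4344615 read 22.9 in ethylene and 1035 in air in WT, 104 and 17.2 in mhz4, and 15 and 14.1 in mhz5. LOC4344618 read 8.5 and 389 in WT and LOC4344619 4.98 and 178, with 5.64 to 27.8 on the mutant shoot arrays for both. LOC4344616 read 30.5 and 107 in WT. For the cluster's 4 genes the WT air array was at least 1 log2 unit above all 4 mutant arrays. WT minus mutants was -6.18 ± 0.73 for LOC4344615 (SE, adjusted p = 0.042), a call lost with a pseudocount of 2 and without the mhz1 or the WT root arrays. Of the 12 genes at least 8-fold lower in WT, 3 belonged to this cluster and 9 to none. Among the 9, LOC4344266 read 35.03 in ethylene and 669 in air in WT and 24.3 to 39.9 on the mutant shoot arrays, and LOC4347412 read 16.03 and 317 in WT and 8.58 to 15.2 on the mutant shoot arrays.

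The cluster with the most members held 6 genes on chromosome 11, among them the class III chitinases Chib3H-h (43.9 and 118.5 in WT) and Chib3H-a (139 and 388 in WT). Its LOC4351186 read 90.2 and 264.5 in WT, 76.9 and 32.7 in mhz4, and 64.1 and 24.7 in mhz5. Its LOC4351190 read 38.3 and 238 in WT, 73.8 and 39.7 in mhz4, and 82.0 and 48.7 in mhz5, with WT minus mutants at -3.13 (adjusted p = 0.0114). Both were lower in ethylene in WT and higher in ethylene in mhz4 and mhz5. Neighbours can be paralogs, and probe sets of near-identical copies may share transcripts. Among the higher clusters, LOC4346629 and its neighbour LOC4346628 on chromosome 9 read 255 and 23.1 and 396 and 134 in WT. Their signals in mhz4 and mhz5 were 395 to 1656.

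Outside the clusters the smallest adjusted p of WT minus mutants belonged to LOC4329813, which was chosen after its values were seen. It read 83.3 in ethylene and 452 in air in WT, 78.9 and 12.5 in mhz4, and 151 and 19.5 in mhz5. It was dim in roots, at 4.28 to 5.95, so the root pairs added little to the spread behind its p-values. It rose in the mutants by 2.31 ± 0.14 (SE, adjusted p = 0.0054), and WT minus mutants was -4.64 ± 0.22 (SE, adjusted p = 0.00214). LOC4349325 read 23.5 and 397 in WT, 79.5 and 7.15 in mhz4, and 31.8 and 4.92 in mhz5, with WT minus mutants at -5.76 (adjusted p = 0.00589). Its root signals were dim too, at 3.77 to 7.67. LOC4346052 read 133 and 1416 in WT, against 76.4 to 191 on the mutant shoot arrays (WT minus mutants -3.46, adjusted p = 0.0167). LOC4352571 read 486 and 1361 in WT, against 323 to 464 on the mutant shoot arrays (WT minus mutants -1.85, adjusted p = 0.0105). Of the 34 called probe sets that were also compared in WT, 18 were below 0 in WT and above 0 in both mutants, 7 were the reverse, and for 17 only the WT air array was apart.

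Several genes tied to ABA and to water stress had higher signals in WT than in the mutants in both gases. Of 8 genes of the LEA, dehydrin and clade A PP2C list, 1 was at least 2-fold lower (against 1.44% of all genes compared) and 6 were below 0 (against 56.3%). RAB21, a dehydrin, read 157 in ethylene and 633 in air in WT, 49.99 and 56.5 in mhz4, and 40.0 and 31.3 in mhz5. A further probe set of RAB21 gave a WT difference of -2.19. In WT roots its difference was -6.66. Others were level between the gases while higher in WT, such as LEA19 with 177 and 168 in WT and 8.11 to 12.7 in the mutants. PP2C30, a phosphatase that restrains ABA signalling, read 85.5 and 114 in WT, 12.7 and 15.7 in mhz4, and 11.2 and 13.8 in mhz5. ABA8OX1, which breaks down ABA, read 50.8 and 130 in WT, 84.6 and 53.7 in mhz4, and 82.5 and 112 in mhz5. It was the 1 gene of 10 in the ABA and carotenoid list at least 2-fold lower.

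The cold- and heat-related genes at least 2-fold apart were lower in WT after ethylene. In both mutants HSP16.9B and HSF05 were lower too, whereas ERF31 and CBF3 had opposite signs in mhz4 and mhz5. Of 6 ERF and AP2 genes compared, ERF31 (27.4 and 117 in WT) and CBF3 (20.4 and 78.8 in WT), neighbours on chromosome 9, were at least 2-fold lower. ERF31 read 78.5 and 40.0 in mhz4 and 51.5 and 90.7 in mhz5, so the mutants did not share an order. The same held for CBF3, with 46.05 and 35.01 in mhz4 and 32.2 and 61.3 in mhz5. Of 36 heat shock genes 3 were at least 2-fold lower, and over all genes compared 1.44% were. Yet 24 of the 36 were above 0 in WT (against 43.7% of all genes compared), with a median of 0.07. The small heat shock gene HSP18.1 read 77.9 and 360 in WT and 66.9 to 83.2 on the mutant shoot arrays, and a further probe set gave -1.07. HSP16.9B read 76.3 and 161 in WT, 87.5 and 144 in mhz4, and 109 and 127 in mhz5. The heat shock factor HSF05 read 26.5 and 76.6 in WT, 20.2 and 39.0 in mhz4, and 12.5 and 57.9 in mhz5. Among other genes, the calmodulin-like CML16 read 272 and 862 in WT, 704 and 844 in mhz4, and 416 and 1156 in mhz5. PXG, a peroxygenase, read 94.3 and 321 in WT, 101 and 237 in mhz4, and 44.6 and 256 in mhz5, and fell by 1.75 in the mutants (adjusted p = 0.0394). CCR1 read 21.9 and 157.5 in WT and 19.99 to 26.2 on the mutant shoot arrays.

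Jasmonate genes were mixed, with 2 of 29 at least 2-fold higher and 2 lower (against 1.01% and 1.44% of all genes compared). JAMYB, a jasmonate-induced MYB factor, read 162 in ethylene and 63.9 in air in WT, 190 and 63.3 in mhz4, and 162 and 80.3 in mhz5, and rose in the mutants by 1.21 ± 0.16 (SE, adjusted p = 0.0239). LOX8, a lipoxygenase, read 119 and 31.4 in WT, 450 and 136 in mhz4, and 367 and 162 in mhz5 (mutant response 1.41, adjusted p = 0.404). Its root signals, which enter the spread of that fit, had opposite orders, 131 and 11.9 in mhz4 and 58.9 and 164 in mhz5. AOS4, an allene oxide synthase of jasmonate synthesis, read 1370 and 3101 in WT, 799 and 1632 in mhz4, and 1173 and 1786 in mhz5, and fell by 0.81 in the mutants (adjusted p = 0.0337). The repressor gene JAZ13 read 49.8 and 187 in WT, 38.4 and 24.2 in mhz4, and 105 and 49.8 in mhz5, so WT had the opposite order to both mutants.

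In the defence list 2 of 29 genes were at least 2-fold higher and 3 lower (against 1.01% and 1.44% of all genes compared). The germin-like GLP2 read 165 and 32.9 in WT, 644.5 and 303 in mhz4, and 633 and 298 in mhz5. The chitinase Cht11 read 183 and 69.3 in WT, 403 and 434 in mhz4, and 399 and 174 in mhz5, so the mutants did not share an order. The chitinase Cht1 read 145 and 581 in WT, 45.8 and 51.4 in mhz4, and 275 and 160 in mhz5. The WT difference of Cht1 was -1.95, and WT minus mutants was -2.25 (adjusted p = 0.074). The immune regulator RAI1 read 475 and 174 in WT, 380 and 309 in mhz4, and 461 and 368 in mhz5, with WT minus mutants at 1.10 (adjusted p = 0.0453), a call lost under 7 of 11 other settings. In the phytoalexin list, THT2, which joins tyramine to phenolic acids, read 230 and 72.9 in WT and 341 to 548 on the mutant shoot arrays. ADC2, an arginine decarboxylase of polyamine synthesis, read 66.3 and 176 in WT and 24.7 to 52.9 on the mutant shoot arrays. The β-glucosidase BGLU3 read 313 and 98.5 in WT and 535 to 672 on the mutant shoot arrays.

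Photosynthesis genes differed little in WT, and most lay on the other side of 0 from the mutants. None of the 21 compared was 2-fold apart in WT, yet 18 were above 0, with a median of 0.19, against 43.7% above 0 over all genes compared. In the mutants 19 (mhz4) and 20 (mhz5) were below 0, with medians of -0.43 and -0.51. In the limma test of mhz4 and mhz5 shoots 6 fell (against 2.54% of all probe sets tested). PORB, a protochlorophyllide oxidoreductase that lets dark-grown shoots green on light, read 625 in ethylene and 495 in air in WT, 1057 and 1652 in mhz4, and 686 and 1167 in mhz5. It fell by 0.70 ± 0.10 in the mutants (SE, adjusted p = 0.026). GluTR, the glutamyl-tRNA reductase of chlorophyll synthesis, read 409 and 370 in WT, 859 and 1196 in mhz4, and 298 and 614 in mhz5, and fell by 0.75 (adjusted p = 0.0422). RBCS, the small subunit of Rubisco, read 9681 and 8790 in WT. In the limma test of WT minus mutants 0 of the 21 passed, and the smallest adjusted p was 0.0885, for GSA. At an unadjusted p under 0.05, 12 of the 21 had the higher difference in WT. Over all probe sets tested, 2849 of 20760 were under that unadjusted limit, counting both signs. The shoot marker list shares 7 of its 15 genes with the photosynthesis list, the abundant RBCS and CAB2R among them. Those 7 summed to 20520 and 19350 in WT, 25971 and 30942 in mhz4, and 20521 and 27362 in mhz5. The other 8 summed to 3888 and 5062 in WT, 3527 and 3741 in mhz4, and 3750 and 3881 in mhz5, and the part of tissue makeup in the result was not tested.

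Most members of the histones and cell cycle list and of the auxin list were below 0 in WT. Of 50 genes of the histones and cell cycle list 42 were below 0, with a WT median of -0.19 beside -0.07 (mhz4) and 0.02 (mhz5), against 56.3% below 0 over all genes compared. The lowest were CDKG-1, at 112 and 203 in WT, and CYCP2-1, at 132 and 230. In the auxin list 33 of 47 were below 0 in WT (median -0.14), the lowest being IAA2 at 94.1 and 179. In the mutants 5 auxin genes rose (against 1.2% of all probe sets tested). These were GH3.1 and GH3.2, which conjugate auxin to amino acids, by 0.93 and 0.85 (adjusted p = 0.0394 and 0.0239), and the AUX/IAA repressor genes IAA12, IAA20 and IAA31 by 0.52, 0.89 and 0.48 (adjusted p = 0.0451, 0.0191 and 0.0432). In WT these 5 lay between -0.43 and 0.02. Of the 23 genes for cytosolic ribosomal proteins 17 were above 0 in WT (against 43.7% of all genes compared), with a median of 0.04.

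**Figure D5:**
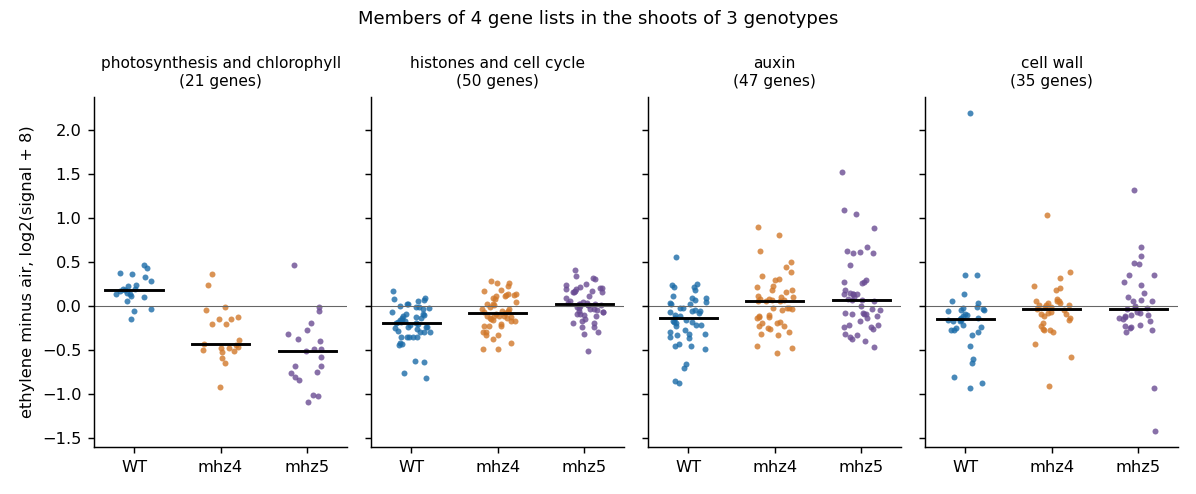
Points are the members of 4 gene lists, with the difference between ethylene and air on the y axis in log2(signal + 8) and a black bar at the median of each genotype. The photosynthesis members lie around 0.19 in WT and around -0.43 and -0.51 in mhz4 and mhz5, and 42 of the 50 histone and cell cycle members are below 0 in WT.

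Other lists had few or no large members. The aquaporin PIP1-3 (75.4 and 180 in WT) and the cytokinin response regulator RR9 (60.02 and 131 in WT) were at least 2-fold lower. Each was 1 gene of its list (17 and 23 compared), against 1.44% of all genes compared. In the sugar and starch list (31 compared), the gibberellin list (11), the nitrogen and phosphate list (16), the zinc, copper and metallothionein list (19) and the clock and light list (11), all members were less than 2-fold apart. The clock and light genes ranged from -0.38 for CCA1 to 0.15. CCA1 fell by 0.51 in the mutants (adjusted p = 0.0365). AMT1-1, an ammonium transporter, and ZIP4, a zinc transporter, had WT differences of 0.60 and -0.87. AMT1-1 rose in the mutants by 0.58 (adjusted p = 0.0283) and ZIP4 fell by 0.91 (adjusted p = 0.0256). Seed and endosperm markers summed to 1166 in ethylene and 1030 in air in WT, both below the 1389 to 1767 of the mutant shoot arrays.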

How the data were processed

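The values deposited by the authors are linear intensities, made with MAS5 per the submitters' processing notes. The MAS5 version and its scaling are not given in the sources used. Per the labels' protocols, 6 µg of total RNA were turned into biotin-labelled cRNA. Array medians were 16.3 to 17.0, and 19196 to 20048 probe sets an array reached a signal of 50. Signals were used as deposited, without rescaling, and 123 Affymetrix controls of 57381 probe sets were left out.

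Gene names came from the platform annotation and the RefSeq gene table (assembly ASM3414082v1, no coordinates used). 22436 probe sets had 1 gene, 95 several and 34727 were unnamed here. Of 17905 genes 2445 had an informative name. For a gene with several probe sets, the brightest over the 6 shoot arrays stands for it. MHZ5 was not matched.

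Both tests used limma 3.58.1 (R 4.3.3) on log2(signal + 8) with a variance trend, two-sided, with Benjamini-Hochberg adjustment over all probe sets tested and a threshold of 0.05, for probe sets that reached a signal of 50 on 2 or more of the shoot arrays fitted. The mutant fit had 5 genotype-by-tissue terms, a root and a shoot ethylene term and 3 residual degrees of freedom. The fit of all 14 arrays had 7 genotype-by-tissue terms, a root term, a mutant shoot term and a WT shoot term, and 4 residual degrees of freedom. Root arrays add only to the estimate of the spread. The number of arrays limits the precision.

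The comparison, the gene lists and the rules were chosen with earlier results of these data known. Named with values were the 15 named genes with the largest positive and negative WT differences, list members at least 2-fold apart (up to 4 a list and direction), the ethylene genes and MHZ4. Added were, for each sign, the 5 largest genes called in the mutants and 2-fold the same way in WT. Genes called in WT minus mutants, some genes at least 8-fold apart, the haemoglobins, cluster members and list members called in the mutants were chosen after their values were seen. Pseudocounts of 2 and 32, other scalings, other signal filters, no variance trend, shoots alone and left-out genotypes were the alternatives.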

Additional observations from a re-analysis of the deposited data

Results flagged for a closer look

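Below are 13 of the genes behind the 35 probe sets whose response in WT shoots differed from that in mhz4 and mhz5 shoots by limma's test of the difference, namely those named in the report and LOC4331557. Each value is the WT response minus the mutant response on log2(signal + 8), and a lone WT pair stands behind it. The difference was negative in PDC1 (-6.96), LOC4344615 (-6.18), LOC4349325 (-5.76), LOC4329813 (-4.64), PPDK2 (-4.29), LOC4346052 (-3.46), LOC4351190 (-3.13), EXPA1 (-2.77), LOC4352571 (-1.85) and LOC4331557 (-1.66). It was positive in EXPB7 (1.77), EXPB2 (1.55) and RAI1 (1.10). In LOC4331557, which read 39.7 in ethylene and 281 in air in WT, 124 and 257 in mhz4, and 110 and 208 in mhz5, the WT ethylene array was the one apart, and the call was lost under 5 of 11 other settings. In RAI1 neither WT array was, and in the other 11 the WT air array was. The part of that array in these results was not tested.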

How the results depend on the processing

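No paired analysis was possible because every group holds 1 array, so that no replicates can be paired. Both fits already compare ethylene and air within each genotype and tissue. The counts of probe sets at least 2-fold apart in WT stayed within 1.5 times under all scalings, filters and pseudocounts run. With a pseudocount of 32 the probe sets at least 4-fold apart were 29 in place of 68, those shared with both mutants 2 in place of 15, and those with only the air array apart 20 in place of 47.

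The test in mhz4 and mhz5 shoots called 471 probe sets with a pseudocount of 2, 1219 with 32, 0 without mhz4 (1992 at an unadjusted p under 0.05) and 7 without mhz5 (2322 unadjusted), against 760. Leaving out a mutant leaves 1 shoot pair in this limma fit. Among probe sets at least 2-fold higher in WT, 50 rose in the mutants with a pseudocount of 32, 80 with shoots alone, 0 without mhz4 and 0 without mhz5, against 33. Among those lower in WT, 0 fell without mhz4 and 2 without mhz5, against 69.

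WT minus mutants, with 35 calls, gave 15 with a pseudocount of 2, 212 with 32 (134 higher and 78 lower, against 13 and 22), 113 with no signal filter, 62 with shoots alone, 1 without mhz4, 10 without mhz5, 11 without mhz1 and 13 without the WT root arrays. LOC4329813, PPDK2 and LOC4349325 passed under every alternative that could test them. Each of these genes read under 50 on all root arrays, which enter the spread in most of the alternatives. No direction of a called value reversed under the alternatives run, and with trimmed mean scaling and quantile normalization the photosynthesis, histone, auxin and cell wall lists kept the sign of their WT medians. The cause of these shifts was not tested beyond the smaller number of arrays. Without detection calls, signals under 50 are not told apart from background, so ratios against them are rough.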
